A study of Mus musculus with 9 samples.

Results

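Cholesterol synthesis, uptake and efflux were followed through 34 genes, chosen by symbol and matched by Entrez number to the deposited table. All 34 had rows, among 17963 genes, and all 34 passed the filter on low counts, which left 13954 genes. By role they comprised 18 enzymes of synthesis, 5 genes of sterol sensing, 3 of transport inside the cell, 6 of efflux and its control by liver X receptors (LXR), the esterifying enzyme Soat1 and the oxidising enzyme Cyp27a1. The list is a selection of the pathway.

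RNA came from cortical kidney tissue of mice labelled WT (strain, age and doses not given in the sources used here), in 3 groups of 3 libraries labelled day 4. The first group, called YSJZD below, received cisplatin into the peritoneum and Yishen Jiangzhuo decoction, a herbal medicine, into the stomach. The cisplatin group received cisplatin, an anticancer platinum compound toxic to tubule cells, with pure water into the stomach. The control group received saline into the peritoneum with pure water into the stomach. No group received the decoction without cisplatin, and nothing read here states that each library came from its own animal, so that p-values measure only the spread between these libraries.

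Cells make cholesterol from acetyl-CoA through mevalonate, isoprenoid diphosphates and squalene, which is closed into lanosterol and trimmed to cholesterol in the endoplasmic reticulum. When membrane sterol is low, SCAP carries the transcription factors encoded by Srebf1 and Srebf2 (sterol regulatory element binding proteins, SREBPs) from the endoplasmic reticulum to the Golgi, where they are cut and released to turn on the enzymes of synthesis, and INSIG proteins hold them back when sterol is plentiful. When sterol derivatives accumulate, LXRs turn on export through ABCA1 and ABCG1 to lipoproteins such as APOE. In the kidney the proximal tubule takes up and recycles large amounts of membrane, and macrophages express the efflux genes strongly.

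The 250 bases before the start of 6 genes are printed to show the start regions of members described in detail. Hmgcs1, Cyp51, Mvd and Idi1 were the synthesis genes furthest below control with cisplatin, Insig1 encodes the brake of the pathway, and Msmo1 is an enzyme gene of the same pathway that did not pass the test in that comparison. The sequences are RefSeq's on build GRCm38.p6, 5′ to 3′ along the gene. Capitals mark CCAAT, the box of the factor NF-Y, and TCACNC, the core of a sterol regulatory element (in Hmgcs1 also its longer form TCACNCCAC), on either strand (ATTGG and GNGTGA on the other).
Hmgcs1 (chr13:119690101-119690350, plus strand): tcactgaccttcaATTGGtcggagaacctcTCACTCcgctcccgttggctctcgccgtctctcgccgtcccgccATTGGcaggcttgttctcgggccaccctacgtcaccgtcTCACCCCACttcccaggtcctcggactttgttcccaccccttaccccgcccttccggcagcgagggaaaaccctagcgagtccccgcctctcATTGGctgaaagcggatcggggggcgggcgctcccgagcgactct
Cyp51 (chr5:4104698-4104947, minus strand): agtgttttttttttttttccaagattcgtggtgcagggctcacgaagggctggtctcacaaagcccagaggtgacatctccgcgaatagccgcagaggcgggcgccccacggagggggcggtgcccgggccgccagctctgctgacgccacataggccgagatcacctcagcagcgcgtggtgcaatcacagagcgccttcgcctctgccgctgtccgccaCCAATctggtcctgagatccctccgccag
Mvd (chr8:122443423-122443672, minus strand): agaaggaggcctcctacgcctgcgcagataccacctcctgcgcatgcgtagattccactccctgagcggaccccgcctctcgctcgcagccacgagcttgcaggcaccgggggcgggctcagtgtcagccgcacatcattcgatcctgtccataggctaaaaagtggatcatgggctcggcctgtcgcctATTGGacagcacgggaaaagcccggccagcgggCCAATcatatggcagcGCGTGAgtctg
Idi1 (chr13:8885356-8885605, plus strand): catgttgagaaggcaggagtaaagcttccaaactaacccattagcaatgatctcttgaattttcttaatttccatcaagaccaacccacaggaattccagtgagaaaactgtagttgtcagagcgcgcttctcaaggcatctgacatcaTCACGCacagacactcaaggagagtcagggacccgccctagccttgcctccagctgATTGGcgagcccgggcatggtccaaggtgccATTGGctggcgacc
Insig1 (chr5:28071162-28071411, plus strand): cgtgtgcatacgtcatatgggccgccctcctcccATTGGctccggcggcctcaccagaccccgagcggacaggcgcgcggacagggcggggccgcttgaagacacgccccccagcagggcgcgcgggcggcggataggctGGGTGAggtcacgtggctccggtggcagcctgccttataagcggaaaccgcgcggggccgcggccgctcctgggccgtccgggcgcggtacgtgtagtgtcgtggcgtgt
Msmo1 (chr8:64733579-64733828, minus strand): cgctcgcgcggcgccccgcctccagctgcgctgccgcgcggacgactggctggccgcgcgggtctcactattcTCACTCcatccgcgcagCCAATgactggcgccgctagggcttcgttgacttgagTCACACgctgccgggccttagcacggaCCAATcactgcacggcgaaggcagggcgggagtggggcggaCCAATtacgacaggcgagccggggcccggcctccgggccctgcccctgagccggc

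The RefSeq table held such windows for 28 of the 34 genes, 39 windows in all, and for 15 of the 18 synthesis genes, with 18 windows. CCAAT was found in 14 of those 18 windows, 1 for each of 14 genes, and in 33.8% of all 32851 windows of the table. GGGCGG, the Sp1 box, was found in 15 of the 18 and in 32.7% of all, and CACGTG, an E-box, in 3 of the 18 and in 6.02% of all. The longer sterol element TCACNCCAC, which contains TCACNC, was found in the Hmgcs1 window alone among the synthesis genes and in 1.05% of all windows. In that window it began 137 bases before the start. TCACNC alone was found in 7 of the 18 windows and in 37.6% of all windows. TCACNC and CCAAT stood together in 6 of the 18 windows and in 12.5% of all. Msmo1 had 2 TCACNC and 3 CCAAT matches, and Cyp51 had 1 CCAAT and no TCACNC match in this window. Sterol elements with a spelling other than these were not searched for. A window without a TCACNC match may therefore still hold such an element. Matching letters describe the window only.

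Levels are given in CPM, counts scaled to the library's size. Library totals lay between 15029286 and 16690482 expected counts. On the third principal component of log2 CPM, with 5.4% of variance, cisplatin replicate 3 stood at 48.8, and the highest of the other 8 libraries at 5.59. The proximal tubule markers were present, with a summed level of 21600 to 40440 CPM in YSJZD libraries, 8873 to 10090 CPM in cisplatin libraries and 71470 to 91100 CPM in control libraries. In these bulk samples, fewer cells of a type and less RNA per cell cannot be told apart.

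**Figure D1:**
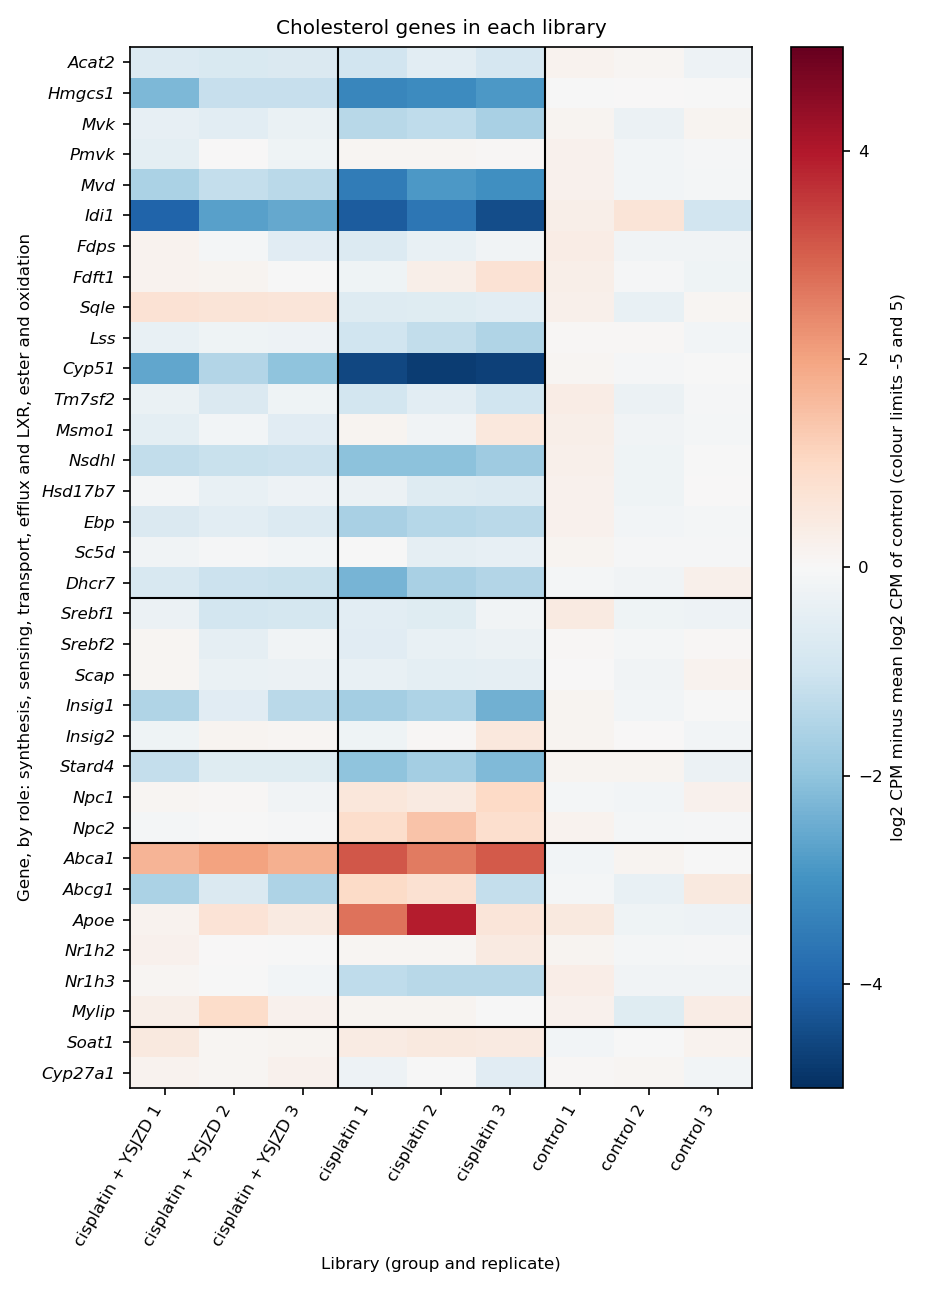
Log2 CPM of each gene (rows, by role) in each of the 9 libraries (columns, 3 a group) minus the mean log2 CPM of the control libraries. Blue in the synthesis block is deepest in the cisplatin libraries for Cyp51, Idi1, Mvd and Hmgcs1, and red marks Abca1 in all cisplatin and YSJZD libraries and Apoe in cisplatin replicates 1 and 2.

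Levels were compared between genes in FPKM, fragment counts that also allow for transcript length, summed over the deposited transcripts of a gene. Hmgcs1 was first of the 34 in control at 228 ± 13.6 FPKM (SD, n = 3) and Cyp51 followed at 107 ± 4.77 FPKM. Apoe (80.8 ± 20.7 FPKM) and Nsdhl (73.2 ± 9.73 FPKM) came next, and the last pair lay within each other's spread. Abca1 stood last in control at 1.81 ± 0.2402 FPKM, beside Abcg1 at 2.04 ± 0.731 FPKM. In cisplatin libraries Cyp51 held place 28 at 5.02 ± 0.509 FPKM and Abca1 place 12 at 16.04 ± 2.83 FPKM. Apoe was first there at 748 ± 673 FPKM, with an SD close to its mean, and Npc2 was the second at 89.95 ± 24.6 FPKM. In YSJZD libraries Apoe (121 ± 19.03 FPKM) and Hmgcs1 (96.5 ± 36.5 FPKM) led, with overlapping spreads, and Cyp51 held place 10 at 31.2 ± 11.5 FPKM.

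Synthesis genes were lower with cisplatin from the first steps to the last, though not at every step. Of the 18 enzyme genes, 13 fell and 0 rose in cisplatin against control, where 26% of the 13954 genes tested fell and 28.6% rose. The call needed an adjusted p under 0.05 (Benjamini and Hochberg, over all genes tested) in edgeR's quasi-likelihood test, fitted to all 9 libraries. The median log2 difference over the 18 was -1.04, against 0.04 over all genes tested. Of the 13, 9 fell at least 2-fold, as did 14.4% of all genes tested. With YSJZD against cisplatin, 9 of the 18 rose and 1 fell, where 17.4% and 18% of all genes did, and the median was 0.80 against -0.01. YSJZD against control had 8 lower and 1 higher, where 9.37% and 9.93% of all genes were, with a median of -0.43 against 0.01. These comparisons share libraries and are not independent of each other. Summed over the 18 genes, the level was 819 to 1138 CPM in YSJZD libraries, 484 to 568 CPM in cisplatin libraries and 2145 to 2406 CPM in control libraries, with no overlap between groups. Hmgcs1 (mean 837 CPM) and Cyp51 (496 CPM) were the largest parts of the sum in control. The median log2 difference from the control mean lay between -0.55 and -0.48 in YSJZD libraries and between -1.14 and -0.91 in cisplatin libraries. In control libraries it lay between -0.13 and 0.21.

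Proximal tubule markers moved with these genes. Of 15, 13 were lower in cisplatin than in control, 14 were higher in YSJZD than in cisplatin and 10 were lower in YSJZD than in control, with none called the other way. Their median log2 differences were -3.20, 2.21 and -0.79 in that order, and no marker was at 0 throughout a group. Of 8 thick ascending limb markers 7, and of 6 distal convoluted tubule markers 6, were also lower in cisplatin than in control. Of 8 collecting duct markers 3 were lower there and 0 higher, with a median of -0.12. The shares of all genes tested in these comparisons are those given above. The part of these tubule segments in the result was not tested.

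Hmgcs1 encodes the cytosolic synthase that makes HMG-CoA. It had 177, 380 and 377 CPM in YSJZD libraries, 88.2, 94.99 and 116 CPM in cisplatin libraries and 829, 856 and 827 CPM in control libraries. All cisplatin libraries lay below all YSJZD libraries, and those below all control libraries, and YSJZD replicate 1 was the lowest of its group. The log2 fold changes, each with its SE, were -3.07 ± 0.28 (adjusted p = 1.35e-05) in cisplatin against control, 1.64 ± 0.26 (adjusted p = 0.00131) in YSJZD against cisplatin and -1.43 ± 0.26 (adjusted p = 0.00457) in YSJZD against control. Acat2, the thiolase gene of the step before, had 81.3, 77.2 and 78.2 CPM in YSJZD libraries, 66.5, 91 and 71.9 CPM in cisplatin libraries and 146, 138 and 108 CPM in control libraries. It was lower than control in all cisplatin and all YSJZD libraries (-0.78 ± 0.16, adjusted p = 0.00209, and -0.73 ± 0.16, adjusted p = 0.0104), while YSJZD and cisplatin libraries overlapped (0.05 ± 0.16, adjusted p = 0.843).

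Mevalonate is then phosphorylated and decarboxylated. The mevalonate kinase gene Mvk had 11.3, 10.2 and 11.9 CPM in YSJZD libraries, 5.64, 6.22 and 4.84 CPM in cisplatin libraries and 16.3, 12.2 and 16.5 CPM in control libraries. All cisplatin libraries lay below all YSJZD libraries, and those below all control libraries (-1.43 ± 0.19, adjusted p = 0.0001695, against control). It was higher in YSJZD than in cisplatin libraries (1.00 ± 0.19, adjusted p = 0.00357), and its difference between YSJZD and control missed the threshold (-0.43 ± 0.19, adjusted p = 0.143). Pmvk, the next kinase gene, passed in no comparison, with 9.52, 13.5 and 11.5 CPM in YSJZD, 14.4, 14.4 and 13.8 CPM in cisplatin and 15.3, 12.2 and 12.8 CPM in control. Mvd, the decarboxylase gene, had 34.2, 44.2 and 39.7 CPM in YSJZD libraries, 9.11, 13.8 and 12.3 CPM in cisplatin libraries and 119, 92.5 and 96.5 CPM in control libraries. The 3 groups were fully apart, in the order cisplatin, YSJZD, control from low to high. Mvd differed by -3.13 ± 0.19 (adjusted p = 1.98e-06) in cisplatin against control and by 1.75 ± 0.18 (adjusted p = 0.000149) in YSJZD against cisplatin, and stayed below control with YSJZD (-1.38 ± 0.17, adjusted p = 0.0006801).

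Idi1, the isomerase gene that supplies the starter unit of isoprenoids, had 5.31, 13.1 and 14.5 CPM in YSJZD libraries, 4.83, 7.08 and 3.97 CPM in cisplatin libraries and 105, 135 and 44.4 CPM in control libraries. Every treated library lay below every control library, control replicate 3 being the lowest control, and YSJZD replicate 1 lay among the cisplatin libraries. It fell in cisplatin against control (-4.16 ± 0.49, adjusted p = 6.71e-05) and in YSJZD against control (-3.11 ± 0.46, adjusted p = 0.00161), where its change was the lowest of the 34 genes. YSJZD against cisplatin missed the threshold (1.05 ± 0.46, adjusted p = 0.101). Without YSJZD replicate 1 that difference was 1.39 with adjusted p = 0.0349, and DESeq2 called it on all 9 libraries (adjusted p = 0.0487). Fdps, which lengthens the chain to farnesyl diphosphate, and Fdft1, the squalene synthase gene that commits it to sterols, passed in no comparison. Fdps had 18.6 ± 4.66, 15.4 ± 2.6 and 20.6 ± 4.81 CPM in YSJZD, cisplatin and control, and Fdft1 had 32.6 ± 2.36, 37.9 ± 12.4 and 30.7 ± 5.56 CPM (SD, n = 3 each). The Fdft1 difference of cisplatin from control, 0.30 ± 0.23, passed without cisplatin replicate 1 (adjusted p = 0.0457) and when scaled by library totals (0.0411). In GENCODE, 18.3% of Fdft1 exon bases overlap Ctsb on the opposite strand, and 26.7% of Fdps exon bases overlap the gene model Gm43738 on the same strand, so that reads in them cannot be assigned with certainty. The same holds for 12.1% of Tm7sf2 exon bases, shared with Vps51, for 12.1% of Hmgcs1, 13.2% of Scap and 9.22% of Idi1, which overlap models on the opposite strand, and for a smaller share, under 5% with any 1 other gene, in Cyp51, Lss, Npc1, Srebf1 and Nr1h3.

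Squalene is oxidised by SQLE and closed to lanosterol by LSS. Sqle had 85.4, 80.8 and 78 CPM in YSJZD libraries, 32.8, 33.6 and 35.1 CPM in cisplatin libraries and 61.6, 39.6 and 54.8 CPM in control libraries. The YSJZD libraries were above all control libraries, and the cisplatin libraries below them. Sqle differed from control by -0.62 ± 0.16 (adjusted p = 0.00692) with cisplatin and by 0.65 ± 0.16 (adjusted p = 0.0163) with YSJZD, and between YSJZD and cisplatin by 1.27 ± 0.16 (adjusted p = 0.000369). Of the 18 enzyme genes it alone was called above control with YSJZD. Lss had 20.5, 23.03 and 22.3 CPM in YSJZD libraries, 13.3, 11.5 and 9.37 CPM in cisplatin libraries and 28.2, 27.9 and 24.6 CPM in control libraries. Cisplatin libraries were lowest and the groups did not overlap. It was called in cisplatin against control (-1.24 ± 0.16, adjusted p = 0.000122) and in YSJZD against cisplatin (0.95 ± 0.16, adjusted p = 0.00175), and not in YSJZD against control (-0.29 ± 0.16, adjusted p = 0.226).

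Cyp51, the gene of the P450 enzyme that removes a methyl group from lanosterol, showed the lowest log2 fold change of the 34 genes in cisplatin against control. It had 81.03, 177 and 122 CPM in YSJZD libraries, 21.2, 18.6 and 19.5 CPM in cisplatin libraries and 526, 471 and 490.1 CPM in control libraries. The groups were fully apart, with cisplatin libraries close together and YSJZD libraries spread between them and control. Cyp51 was 25.1-fold lower in cisplatin than in control (-4.65 ± 0.27, adjusted p = 1.98e-06) and 6.41-fold higher in YSJZD than in cisplatin (2.68 ± 0.25, adjusted p = 9.02e-05). In YSJZD it remained 3.91-fold below control (-1.97 ± 0.24, adjusted p = 0.000575).

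The steps after Cyp51 differed among themselves. Nsdhl, a sterol dehydrogenase gene, had 69.7, 75.4 and 79.3 CPM in YSJZD libraries, 39.4, 40.1 and 48.5 CPM in cisplatin libraries and 195, 141 and 164 CPM in control libraries. Ebp, the sterol isomerase gene, had 61.9, 71.4 and 64.5 CPM in YSJZD libraries, 33.3, 38.4 and 40.4 CPM in cisplatin libraries and 121, 94.6 and 95.8 CPM in control libraries. Dhcr7, the reductase gene of the last step to cholesterol, had 24.99, 20.6 and 19.9 CPM in YSJZD libraries, 8.63, 13.9 and 15.6 CPM in cisplatin libraries and 40.1, 38.5 and 51.9 CPM in control libraries. All 3 had fully separate groups, lowest in cisplatin and highest in control. In cisplatin against control Nsdhl fell by 1.97 ± 0.16, Ebp by 1.48 ± 0.14 and Dhcr7 by 1.78 ± 0.23 on the log2 scale. They were higher in YSJZD than in cisplatin by 0.81 ± 0.15 (adjusted p = 0.00292) for Nsdhl, 0.82 ± 0.14 (adjusted p = 0.00192) for Ebp and 0.78 ± 0.22 (adjusted p = 0.0206) for Dhcr7, which missed the threshold without YSJZD replicate 1 (adjusted p = 0.0593). YSJZD libraries lay below control, with differences of -1.16 ± 0.15 (adjusted p = 0.000804) for Nsdhl, -0.66 ± 0.14 (adjusted p = 0.00956) for Ebp and -0.99 ± 0.22 (adjusted p = 0.0113) for Dhcr7.

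Tm7sf2 and Hsd17b7, which encode sterol reductases, had smaller fitted falls in cisplatin against control, of 0.83 ± 0.24 for Tm7sf2 and 0.53 ± 0.16 for Hsd17b7 on the log2 scale. Tm7sf2 had 9.56 ± 1.75 CPM in YSJZD, 7.21 ± 1.28 CPM in cisplatin and 12.9 ± 3.02 CPM in control, and Hsd17b7 had 39.3 ± 4.07, 32.3 ± 5.07 and 46.7 ± 6.64 CPM. Neither passed in the other comparisons. The Tm7sf2 call was lost without control replicate 1 (adjusted p = 0.0592). The Hsd17b7 call was lost without control replicate 1 (adjusted p = 0.0669) or cisplatin replicate 2 (0.0577). Scaled by library totals both missed the threshold (adjusted p = 0.0618 for Tm7sf2 and 0.159 for Hsd17b7). Sc5d, a desaturase gene, passed in no comparison, with 16.4 ± 0.733, 14.8 ± 2.41 and 17.9 ± 1.37 CPM. Msmo1, the gene of a methyl oxidase acting beside NSDHL, had 29.6, 37.9 and 28.1 CPM in YSJZD libraries, 45.7, 37.1 and 59.8 CPM in cisplatin libraries and 50.9, 36.7 and 38.9 CPM in control libraries. All 3 groups overlapped. It was called lower in YSJZD than in cisplatin (-0.58 ± 0.20, adjusted p = 0.0498), and the call was lost without YSJZD replicate 1 or 3 or cisplatin replicate 1 or 3 (adjusted p from 0.0829 to 0.1599) and in limma-voom (0.0559). The call was also lost with no filter on low counts (0.0555), with replicate number as a block (0.0889) and with only the 6 libraries compared (0.0771). Against control Msmo1 differed by 0.17 ± 0.20 (adjusted p = 0.496) with cisplatin and -0.40 ± 0.20 (adjusted p = 0.201) with YSJZD.

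**Figure D2:**
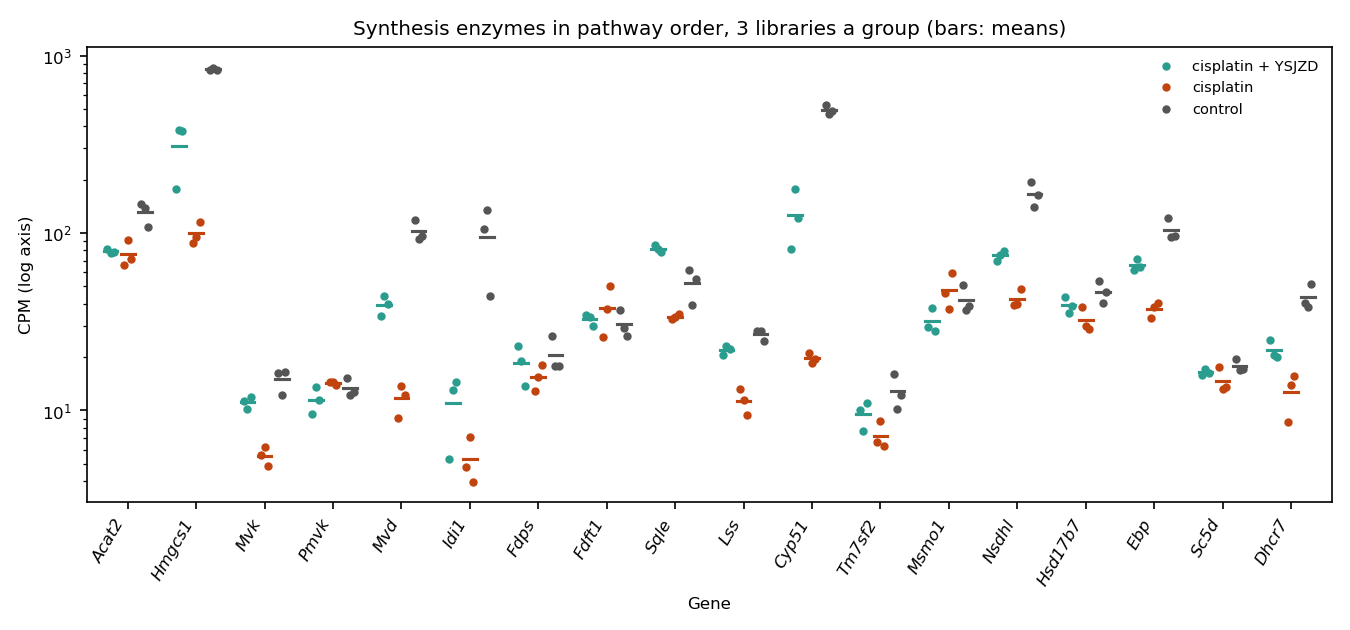
CPM on a log axis for the 18 enzyme genes in pathway order, with a point for each library, a bar for each group mean and 3 libraries a group. The cisplatin points of Hmgcs1, Mvd, Cyp51, Nsdhl, Ebp and Dhcr7 sit below the YSJZD points and those below the control points, while the YSJZD points of Sqle sit above its control points.

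Of the 5 genes of sterol sensing, Insig1 differed most between groups. In cisplatin against control 3 of the 5 fell and 0 rose, beside 26% and 28.6% of all genes tested. In YSJZD against cisplatin, where 17.4% of all genes rose and 18% fell, edgeR called none of the 5, and 1 of the 5, Insig1, had an unadjusted p under 0.05 and was called by DESeq2. Insig1, itself switched on by SREBPs, had 14.1, 27.3 and 15.7 CPM in YSJZD libraries, 12.4, 13.8 and 7.64 CPM in cisplatin libraries and 44.4, 37.2 and 39.8 CPM in control libraries. The cisplatin libraries lay below the YSJZD libraries and both below control, with YSJZD replicate 2 the highest treated library. Insig1 fell in cisplatin against control (-1.84 ± 0.28, adjusted p = 0.00036) and in YSJZD against control (-1.09 ± 0.28, adjusted p = 0.0206), and the second call was lost without YSJZD replicate 1 or 3 or control replicate 1 or 3 (adjusted p from 0.0516 to 0.0757). YSJZD against cisplatin missed the threshold (0.75 ± 0.28, adjusted p = 0.0586), which it passed without YSJZD replicate 1 (adjusted p = 0.0336) and in DESeq2 (0.0371). Its relative Insig2 had 31.8, 40.6 and 39.3 CPM in YSJZD libraries, 31.7, 38.1 and 52.8 CPM in cisplatin libraries and 40.7, 37.2 and 33.3 CPM in control libraries. Its groups overlapped throughout and it passed in no comparison (0.14 ± 0.19, adjusted p = 0.556, in cisplatin against control).

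Srebf2, the regulator of the sterol enzymes, had 95.3, 65.02 and 76.9 CPM in YSJZD libraries, 60.1, 68.8 and 71.8 CPM in cisplatin libraries and 92.3, 81.3 and 91.1 CPM in control libraries. All cisplatin libraries were below all control libraries, and YSJZD libraries overlapped both. The fall in cisplatin was at the threshold (-0.40 ± 0.15, adjusted p = 0.0488) and was lost without any 1 of cisplatin replicates 1 and 2 and control replicates 1, 2 and 3 (adjusted p from 0.0607 to 0.15) and with no filter on low counts (0.0519). Scap, the carrier of both factors, had 139.9, 103 and 105 CPM in YSJZD libraries, 100.4, 93.1 and 95.1 CPM in cisplatin libraries and 131, 115 and 146 CPM in control libraries. YSJZD libraries lay above all cisplatin libraries. It too was lower in all cisplatin than in all control libraries (-0.44 ± 0.15, adjusted p = 0.0313), a call lost without any 1 of the 6 libraries except control replicate 2 (adjusted p from 0.0542 to 0.106). Scaled by library totals neither passed (adjusted p = 0.3604 for Srebf2 and 0.287 for Scap). In YSJZD against cisplatin Srebf2 differed by 0.24 ± 0.15 (adjusted p = 0.247) and Scap by 0.27 ± 0.15 (adjusted p = 0.1898).

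Srebf1, which encodes a factor for fatty acid as well as sterol genes, had 54.2, 35.6 and 36.4 CPM in YSJZD libraries, 46.6, 43.8 and 58.8 CPM in cisplatin libraries and 92.2, 58.2 and 55.4 CPM in control libraries. As a gene it passed in no comparison (-0.46 ± 0.23, adjusted p = 0.118, in cisplatin against control), though YSJZD libraries lay below control without overlap (-0.70 ± 0.23, adjusted p = 0.0613). That difference passed without YSJZD replicate 1 (adjusted p = 0.0353) and in DESeq2 (0.02604). The transcripts of Srebf1 did not all share this pattern. The predicted transcript XM_006532715.2 stood at 0.55, 0 and 0.57 FPKM in YSJZD libraries, 0.51, 0 and 0 FPKM in cisplatin libraries and 11.4, 5.49 and 5.89 FPKM in control libraries, where it made up 50.9% of the gene's FPKM. All 6 treated libraries were far below the 3 control libraries. NM_011480.4 stood at 12.8, 4.11 and 6.4 FPKM in YSJZD libraries, 10.8, 7.19 and 13.2 FPKM in cisplatin libraries and 5.2, 5.43 and 5.21 FPKM in control libraries. It was higher in every cisplatin than in every control library, and its share of the gene was 74.4% in YSJZD, 82.1% in cisplatin and 35.5% in control. The counting program divided reads between the transcripts of a gene, and transcripts were not tested.

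**Figure D3:**
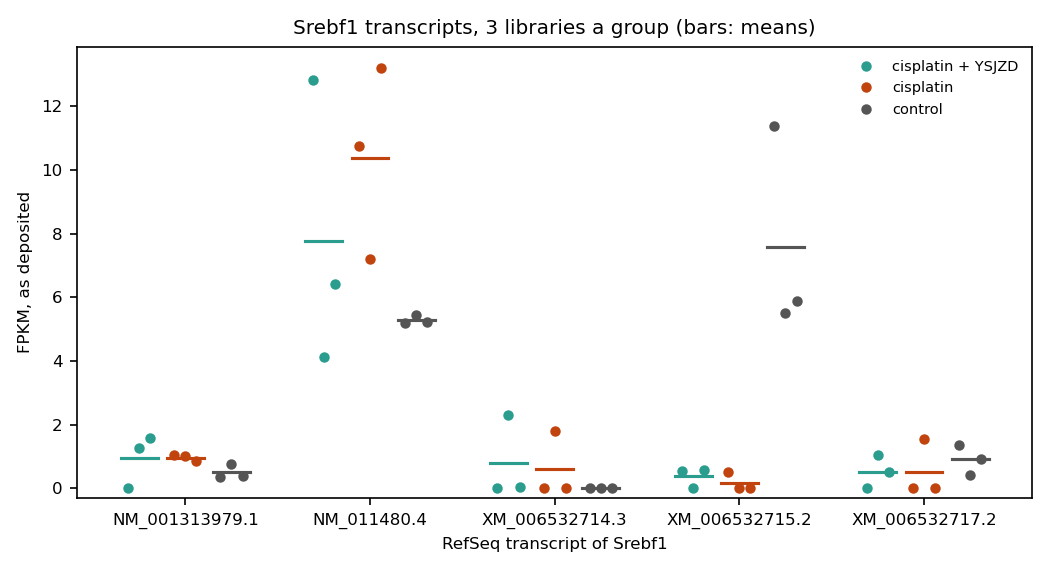
Deposited FPKM of the 5 Srebf1 transcripts that reached at least 1.5 FPKM in a library, with a point for each library and a bar for each group mean, 3 libraries a group. XM_006532715.2 is high in the 3 control libraries only, and NM_011480.4 is highest in cisplatin replicate 3.

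Transport inside the cell split in direction. Stard4 encodes a carrier that moves cholesterol between membranes and is a target of SREBPs. Its level was 28.2, 43.1 and 42.6 CPM in YSJZD libraries, 16, 19.98 and 14.2 CPM in cisplatin libraries and 71.7, 72.3 and 53.5 CPM in control libraries. The groups did not overlap, and it fell in cisplatin against control (-1.98 ± 0.21, adjusted p = 3.67e-05) and was higher in YSJZD than in cisplatin (1.18 ± 0.21, adjusted p = 0.00211). It stayed below control in YSJZD (-0.79 ± 0.20, adjusted p = 0.0214), a call lost without YSJZD replicate 1 or control replicate 1 or 2 (adjusted p from 0.0596 to 0.0791) and when scaled by library totals (0.0641). Npc1 and Npc2 encode the pair of proteins that release cholesterol from lysosomes. Npc1 had 45.2, 44.3 and 38.1 CPM in YSJZD libraries, 62.6, 58.1 and 85.5 CPM in cisplatin libraries and 39.9, 39.3 and 50.1 CPM in control libraries. Npc2 had 118, 123 and 121 CPM in YSJZD libraries, 226, 335 and 224 CPM in cisplatin libraries and 139, 116 and 120 CPM in control libraries. For both genes every cisplatin library was above every library of the other groups, while YSJZD and control overlapped. In cisplatin against control Npc1 rose by 0.67 ± 0.17 (adjusted p = 0.00699) and Npc2 by 1.07 ± 0.17 (adjusted p = 0.000489). In YSJZD against cisplatin they were lower (-0.69 ± 0.17, adjusted p = 0.01095 for Npc1 and -1.12 ± 0.17, adjusted p = 0.00107 for Npc2), and Npc1 missed the threshold without YSJZD replicate 3 (adjusted p = 0.0508). YSJZD against control gave -0.02 ± 0.17 (adjusted p = 0.958) for Npc1 and -0.05 ± 0.17 (adjusted p = 0.873) for Npc2, and scaling by library totals turned both signs (0.16 and 0.14).

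Of the 34 genes, the efflux genes Abca1 and Apoe had the highest log2 fold changes in cisplatin against control. ABCA1 loads cholesterol onto lipoprotein particles. Abca1 had 64.4, 80.4 and 68.5 CPM in YSJZD libraries, 171, 120.1 and 166 CPM in cisplatin libraries and 18.2, 22.1 and 19.9 CPM in control libraries. The groups were fully apart, cisplatin highest and control lowest. It was 7.59-fold higher in cisplatin than in control (2.92 ± 0.18, adjusted p = 1.98e-06), lower in YSJZD than in cisplatin (-1.10 ± 0.16, adjusted p = 0.000909) and still 3.54-fold above control in YSJZD (1.83 ± 0.17, adjusted p = 0.000134).

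Apoe, the lipoprotein gene, had 109, 153 and 131 CPM in YSJZD libraries, 629, 1454 and 147 CPM in cisplatin libraries and 136, 81.7 and 79.5 CPM in control libraries. Cisplatin replicates 1 and 2 were far above all other libraries, while cisplatin replicate 3 lay within the range of the YSJZD libraries and just above control replicate 1. The log2 fold changes were 2.91 ± 0.64 (adjusted p = 0.00315) in cisplatin against control and -2.51 ± 0.63 (adjusted p = 0.0118) in YSJZD against cisplatin. Without cisplatin replicate 2 they were 1.97 (adjusted p = 0.00829) and -1.57 (0.0383). Without cisplatin replicate 3, the library apart on the third component, they were 3.40 (adjusted p = 6.52e-05) and -3.00 (0.000406). YSJZD against control missed the threshold (0.40 ± 0.60, adjusted p = 0.687). Abcg1, an exporter gene, had 4.15, 7.35 and 4.15 CPM in YSJZD libraries, 23.5, 20.6 and 5.4 CPM in cisplatin libraries and 11.4, 9.47 and 17.02 CPM in control libraries, with cisplatin replicate 3 again apart from the other cisplatin libraries. It passed only in YSJZD against cisplatin (-1.67 ± 0.49, adjusted p = 0.0236), a call lost without YSJZD replicate 1 or 3 or cisplatin replicate 1 or 2 (adjusted p from 0.0658 to 0.0827) and in limma-voom (0.0763). Without cisplatin replicate 3 the difference was -2.09 (adjusted p = 0.00122), and cisplatin against control just missed the threshold (0.80, adjusted p = 0.0507). DESeq2 also called Abcg1 lower in YSJZD than in control (adjusted p = 0.0342, against 0.0955 in edgeR on all 9 libraries). So did edgeR with only the 6 libraries compared (-1.27, adjusted p = 0.0189).

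Like Abca1 and Apoe, macrophage markers were mostly higher in cisplatin than in control and lower in YSJZD than in cisplatin. Of these comparisons, Abcg1 passed only in YSJZD against cisplatin. Of 12 macrophage markers, 9 rose and 0 fell in cisplatin against control, where 28.6% and 26% of all genes tested did. In YSJZD against cisplatin 8 were lower and 0 higher, where 18% and 17.4% of all genes were. In YSJZD against control 3 were higher and 0 lower, where 9.93% and 9.37% of all genes were. Their summed level was 426 to 767 CPM in YSJZD libraries, 1186 to 2697 CPM in cisplatin libraries and 124 to 178 CPM in control libraries. Their median log2 difference from the control mean was 2.03, 2.78 and 0.55 in cisplatin replicates 1, 2 and 3, lowest in the library where Apoe and Abcg1 were lowest, although their summed level there, 2415 CPM, lay between those of cisplatin replicates 1 and 2. All 7 neutrophil markers tested rose in cisplatin against control and were lower in YSJZD than in cisplatin. Of 7 fibroblast and pericyte markers, 6 rose in cisplatin against control and 0 fell, and their medians were 1.65, 2.07 and 0.32 in cisplatin replicates 1, 2 and 3. Podocyte markers had medians of 0.81, 0.78 and -0.27 in those libraries, and endothelial markers 0.14, 0.01 and -0.75, again lowest in replicate 3. Of 10 tubular injury markers, 10 rose in cisplatin against control, 9 were lower in YSJZD than in cisplatin and 8 were above control in YSJZD, as Abca1 was. No macrophage or fibroblast marker was at 0 throughout a group. Abca1 in cisplatin replicate 3 was 166 CPM, close to replicate 1. The part of these cells in the result was not tested.

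LXR genes themselves differed. Nr1h3, which encodes LXR alpha, had 60.5, 55.5 and 51.5 CPM in YSJZD libraries, 23.7, 21.6 and 21.8 CPM in cisplatin libraries and 71.6, 50.9 and 50.7 CPM in control libraries. Cisplatin libraries were below all others, and YSJZD and control overlapped. Nr1h3 fell in cisplatin against control (-1.37 ± 0.16, adjusted p = 5.65e-05), was higher in YSJZD than in cisplatin (1.32 ± 0.16, adjusted p = 0.000289), and differed between YSJZD and control by -0.05 ± 0.15 (adjusted p = 0.866), with the sign turned by library totals (0.15). Nr1h2, the gene of LXR beta, passed in no comparison, with 108 ± 9.06, 119 ± 17.1 and 102 ± 9.15 CPM in YSJZD, cisplatin and control. Scaled by library totals it was called higher in cisplatin than in control (adjusted p = 0.00907). Mylip, an LXR target whose protein degrades lipoprotein receptors, did not pass either, at 52.9 ± 14.3, 39.3 ± 2.45 and 38.8 ± 12.6 CPM.

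Soat1, which stores cholesterol as ester, had 44.5, 34.6 and 35.4 CPM in YSJZD libraries, 42.3, 45.3 and 43.4 CPM in cisplatin libraries and 28.96, 31.5 and 36.2 CPM in control libraries. It rose in cisplatin against control (0.44 ± 0.14, adjusted p = 0.0217), and the call was lost without cisplatin replicate 2 or control replicate 1 or 2 (adjusted p from 0.0618 to 0.0848). Cyp27a1, a mitochondrial sterol oxidase gene, had 43.96, 42.3 and 45.8 CPM in YSJZD libraries, 32.6, 38.3 and 26.3 CPM in cisplatin libraries and 40.7, 41.4 and 35.5 CPM in control libraries. It was higher in all YSJZD than in all cisplatin libraries (0.44 ± 0.15, adjusted p = 0.0404), a call kept only without cisplatin replicate 2 among the 6 fits that left out 1 library. It was also lost when scaled by library totals (adjusted p = 0.0924), when genes had to reach 5 CPM in 3 libraries (0.0519) and with only the 6 libraries compared (0.0733). Cisplatin against control missed the threshold (-0.27 ± 0.15, adjusted p = 0.142), which it passed without cisplatin replicate 2 (adjusted p = 0.0486).

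**Figure D4:**
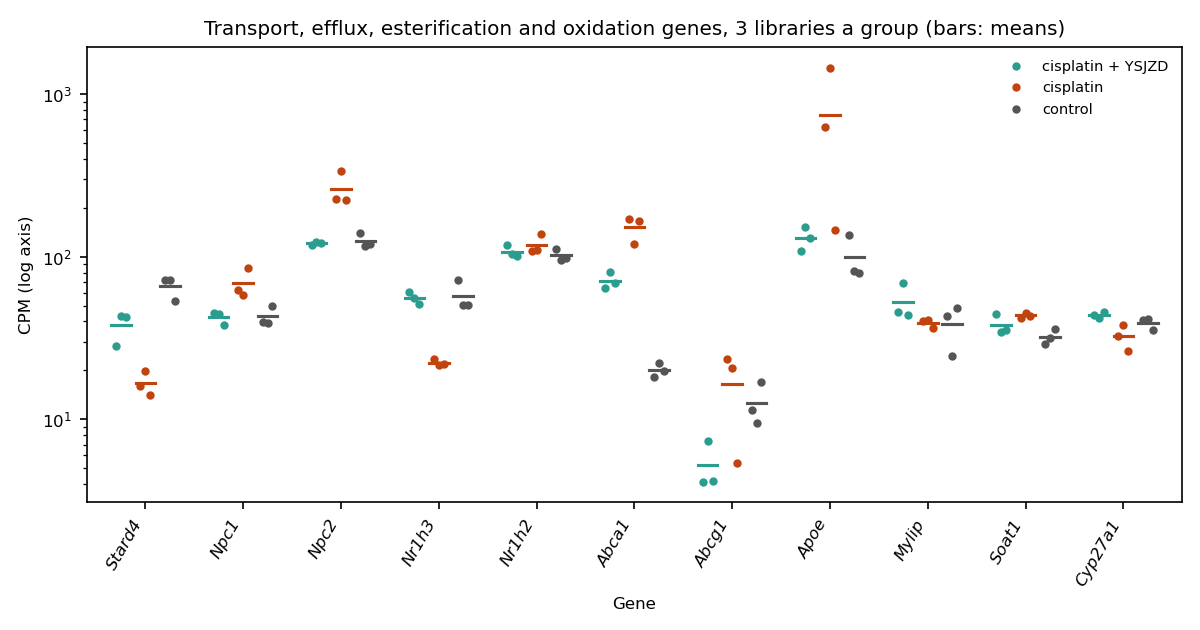
CPM on a log axis for the transport, efflux, esterification and oxidation genes, with a point for each library and a bar for each group mean, 3 libraries a group. Abca1 has 3 separate groups with cisplatin on top, Apoe and Abcg1 have 1 cisplatin library far below the other cisplatin libraries, and Stard4 and Nr1h3 have their cisplatin points at the bottom.

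Over all 34 genes, 18 fell and 5 rose in cisplatin against control, where 26% and 28.6% of all genes tested did, so that the share that rose was below that of all genes. At least 2-fold, 12 fell and 3 rose, beside 14.4% and 18.6% of all genes. The libraries of both groups did not overlap in 18 lower and 5 higher genes, where 31% and 32.4% of all genes tested did so. In YSJZD against cisplatin 12 rose and 6 fell, beside 17.4% and 18% of all genes, and 6 and 4 of them did so at least 2-fold, beside 7.77% and 11.3%. There were separate libraries in 15 higher and 4 lower genes, where 23.7% and 23.6% of all genes had them. In YSJZD against control 10 were lower and 2 higher (Abca1 and Sqle), beside 9.37% and 9.93% of all genes, and 6 and 1 of them at least 2-fold, beside 3.95% and 6.1%. There were separate libraries in 14 lower and 3 higher genes, where 19.5% and 20.8% of all genes had them. Without cisplatin replicate 3, 17 fell and 5 rose in cisplatin against control, and 11 rose and 5 fell in YSJZD against cisplatin. Medians over the 34 were -0.45, 0.28 and -0.24 in the order of these comparisons, against 0.04, -0.01 and 0.01 over all genes tested.

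**Figure D5:**
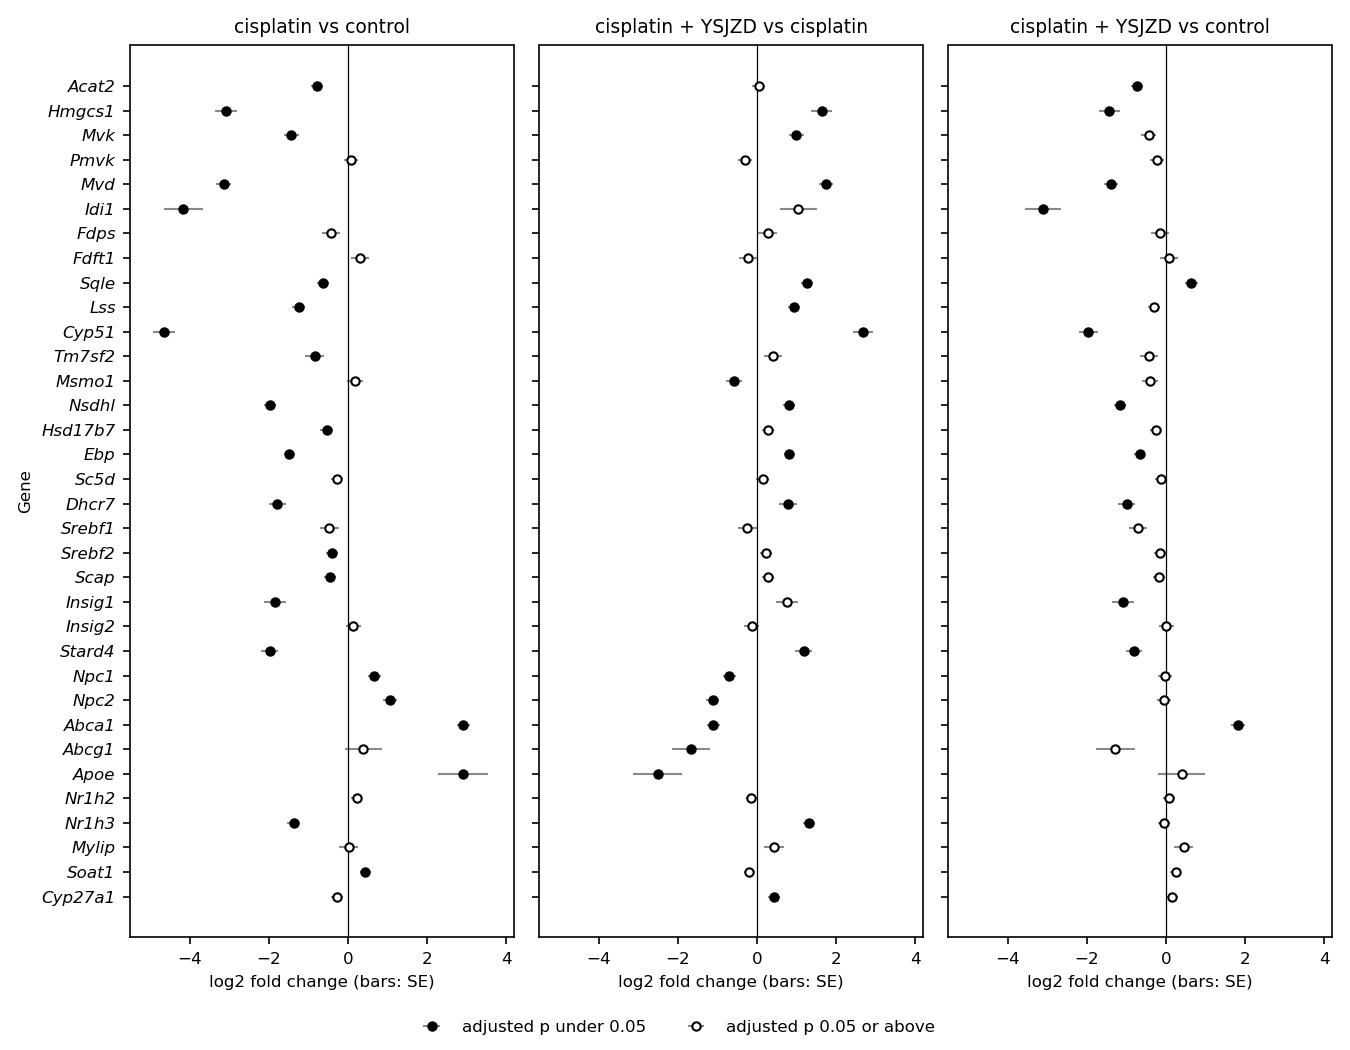
Log2 fold change with its SE for the 34 genes in 3 comparisons, filled where the adjusted p was under 0.05. Cyp51, Idi1, Mvd and Hmgcs1 lie furthest left in cisplatin against control and Abca1 and Apoe furthest right.

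Neighbouring pathways were described from 4 lists. Their counts stand beside 26% of all genes tested lower and 28.6% higher in cisplatin against control, 17.4% higher and 18% lower in YSJZD against cisplatin, and 9.37% lower and 9.93% higher in YSJZD against control. Among 13 genes of fatty acid synthesis, 8 fell and 2 rose in cisplatin against control, and in YSJZD against cisplatin 3 were higher and 1 lower, while 7 stayed below control with YSJZD and 0 lay above. The 3 of 13 higher in YSJZD than in cisplatin are near the share of all genes, and the median was -0.74 in cisplatin against control. Acss2, which makes cytosolic acetyl-CoA from acetate, had 199.8 ± 33.2 CPM in YSJZD, 42.6 ± 7.35 CPM in cisplatin and 418 ± 56.2 CPM in control (log2 fold changes -3.29 ± 0.19 in cisplatin against control and 2.23 ± 0.19 in YSJZD against cisplatin). The desaturase gene Fads2 (-1.89 ± 0.13) and the malic enzyme gene Me1 (-2.02 ± 0.16) fell too, and the lipogenic regulator Mid1ip1 rose (2.04 ± 0.21). Fasn, the fatty acid synthase gene, was lower in cisplatin than in control (-0.89 ± 0.21) and did not pass between YSJZD and cisplatin (0.08 ± 0.21, adjusted p = 0.79).

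Of 10 genes of SREBP processing and its cofactors, 5 fell and 3 rose in cisplatin against control, and 3 were higher and 1 lower in YSJZD than in cisplatin, with 4 below and 1 above control in YSJZD. The 3 of 10 that rose with cisplatin are near the share of all genes, and the median was -0.44 in cisplatin against control. Erlin1, which helps hold SREBPs in the endoplasmic reticulum, fell (-1.69 ± 0.16), as did Mbtps1 (-1.01 ± 0.11), the Golgi protease that cuts SREBPs. Mbtps2, the other protease gene, rose (0.51 ± 0.15). Of the NF-Y subunit genes, Nfyc fell (-0.95 ± 0.12), Nfyb rose (0.94 ± 0.19) and Nfya did not pass (-0.36 ± 0.17, adjusted p = 0.103).

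Among 12 genes of the isoprenoid branches, 7 fell and 1 rose in cisplatin against control, and 5 were higher and 1 lower in YSJZD than in cisplatin, with 3 below and 0 above control in YSJZD, and a median of -0.36 in cisplatin against control. Pdss1 (-2.27 ± 0.23) and Pdss2 (-1.37 ± 0.17), which build the tail of coenzyme Q, and Dhdds (-1.01 ± 0.10), which builds dolichol, fell in cisplatin against control. Of 22 genes of sterol disposal and transport, 21 were tested, 7 rose and 5 fell in cisplatin against control, and 5 were higher and 6 lower in YSJZD than in cisplatin, with 2 above and 0 below control in YSJZD. The shares in cisplatin against control are near those of all genes, and the median was 0.17. Scarb1, the receptor gene for high-density lipoprotein, rose (1.76 ± 0.18), as did Gramd1a (1.46 ± 0.18), a carrier of cholesterol from the plasma membrane. Ch25h was near the floor in control, with an SD not far under its mean, so that the size of its rise is uncertain. This gene, which makes a hydroxycholesterol, was at 2.15 ± 0.0718 CPM in YSJZD, 11.2 ± 6.88 CPM in cisplatin and 0.437 ± 0.334 CPM in control (4.64 ± 0.63 in cisplatin against control). Cyp7b1, the hydroxylase gene that clears such oxysterols, was at 249.5 ± 126 CPM in YSJZD, 23 ± 15.8 CPM in cisplatin and 418 ± 133 CPM in control (-4.19 ± 0.59, cisplatin against control, and 3.44 ± 0.57, YSJZD against cisplatin).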

How the data were processed

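RNA sequencing of 9 mouse kidney cortex libraries, 3 a group, was taken from 1 deposited table with 58075 RefSeq transcripts and their Entrez numbers. The authors' deposited read count columns hold expected counts per transcript, from RSEM 1.3.1 per the submitters' processing notes, which also name DESeq2 1.4.5 and GRCh38, a human build. Which aligner, mouse build and strand setting were used is not given in the sources used here. The other deposited columns were read as FPKM from their values. The check used transcripts longer than 3000 bases with over 500 counts and a minimum deposited value, 1775 to 2347 a library. Over these, the implied transcript length lay a median of 149.0 to 160.9 bases under the annotated length in every library. RSEM divides reads between similar transcripts, so that values of transcripts are less certain than those of genes.

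Expected counts were summed per Entrez gene and rounded, and before rounding 16.5% to 19.4% of a library's gene counts were not whole (tolerance 0.005). Symbols came from RefSeq's GRCm38.p6 table for 17847 of 17963 genes, and 116 stayed under their number. All 9 libraries were fitted in edgeR 4.0.16 (R 4.3.3) with filterByExpr, TMM factors (0.855 to 1.105) and the quasi-likelihood method, whose only term was the group, and p-values were adjusted by Benjamini and Hochberg over 13954 genes. The SE is the log2 fold change divided by the root of the F statistic. CPM are scaled by TMM, and medians of the marker and synthesis lists by library used log2(CPM + 0.5). The fit was tested on simulated counts. The members and lists were chosen with earlier results of these data known, so that lists are described by counts and medians with no test. Genes are given in full where they had the 3 highest or lowest changes among called members of a comparison, were called in opposite directions in cisplatin against control and YSJZD against cisplatin, or belong to sterol sensing. Of related lists, up to 3 genes with the smallest p in cisplatin against control were named; Fasn, Mid1ip1, Mbtps2, Nfya, Nfyb and Cyp7b1 were added after their values were seen. An item of the SREBP processing list is not reported here. Motif matches were searched on both strands of the 250 bases before each start. Alternatives were DESeq2 1.42.0 and limma 3.58.1 (voom), other scalings and filters, the 6 libraries of a comparison alone, a replicate block, only transcripts with a mean of at least 1 count, and leaving out each library.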

Additional observations from a re-analysis of the deposited data

How the results depend on the processing

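Each of the 34 log2 fold changes was recomputed under 15 alternatives a comparison. In cisplatin against control 479 of 510 such values kept their sign and their side of the threshold, 23 lost a call, 4 gained one and 4 changed sign. In YSJZD against cisplatin these numbers were 479, 23, 4 and 4, and in YSJZD against control 475, 8, 5 and 22. No change of sign involved a called value. Left out in turn, libraries gave a range in cisplatin against control of -0.029 to 0.33 for Msmo1, -0.089 to 0.30 for Insig2 and -0.23 to 0.20 for Mylip. In YSJZD against cisplatin the range was -0.046 to 0.19 for Acat2, -0.43 to 0.044 for Fdft1 and -0.29 to 0.091 for Insig2. In YSJZD against control it was -0.33 to 0.061 for Fdps, -0.014 to 0.24 for Fdft1, -0.066 to 0.11 for Insig2, -0.0800 to 0.10 for Npc1, -0.10 to 0.034 for Npc2 and -0.13 to 0.14 for Nr1h3.

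Scaling by library totals put the median of all genes at 0.27 in place of 0.04 in cisplatin against control and at 0.20 in place of 0.01 in YSJZD against control, and called genes were higher in 66.1% in place of 52.4% and in 75.4% in place of 51.4%. In YSJZD against control 2394 genes were then higher and 780 lower, in place of 1386 and 1308, and Fdps (0.047), Sc5d (0.067), Srebf2 (0.032), Scap (0.015), Npc1 (0.16), Npc2 (0.14) and Nr1h3 (0.15) changed sign. Insig2 did so with DESeq2 size factors (-0.013), in DESeq2 (-0.013) and with the replicate block (-0.0099), and Npc1 with the replicate block (0.00035). Leaving out a library gave 823 to 1207 genes higher and 784 to 1034 lower in YSJZD against control, and 3 to 6 members lower in YSJZD against cisplatin, the 3 being without YSJZD replicate 3. Both counts of genes fell by over 1.5 times without control replicate 1 or 2, and that of lower genes also without YSJZD replicate 3. The cause was not tested. No member had under 64 counts in a library, a level reached by Idi1 in cisplatin replicate 3.

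Deviations of same-numbered libraries from their group means correlated between -0.20 and 0.09, and those of differently numbered libraries between -0.20 and 0.24. These values gave no sign that replicate numbers pair the libraries. With 3 libraries a group they cannot exclude it. With the replicate block 17 members fell and 5 rose in cisplatin against control, 12 rose and 5 fell in YSJZD against cisplatin, and 11 were lower and 2 higher in YSJZD against control.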
